A study of Mus musculus with 2 samples.

Results

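Single cells that carried transcripts of both Pax1 and Pax9 were examined in mouse embryos of the C57BL/6 inbred strain at the embryonic stage E10.5. Cells chosen in the same way from a separate E11.5 library are given beside them. The labels name no genotype or treatment, and the tissue of both libraries is given as dorsal aorta and fetal liver, to which the design text adds the tissue around the aorta. Each stage was profiled as 1 library with a droplet assay that counts each captured transcript once by its unique molecular identifier (UMI), and the labels do not say how many embryos were pooled. A barcode counted as a cell if it had 2000 or more UMIs from 500 or more genes, with mitochondrial genes giving no more than 10% of them. A cell entered the group with at least 2 UMIs of Pax1, at least 1 of Pax9 and none of Pax3 or Sox10. At E10.5, 1064 of 7665 cells met this rule, or 13.9% (95% exact binomial interval 13.1 to 14.7). At E11.5, 76 of 8907 cells met it, or 0.853% (0.673 to 1.07). They are called sclerotome-rule cells here. Cells of 1 library are not replicates, so no test between groups was possible, and every interval given is a 95% interval that covers counting error only.

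The sclerotome is the ventral part of the somite, the block of mesoderm that forms beside the neural tube. Sonic hedgehog from the notochord and floor plate induces it, Pax1 and Pax9 are paired-box transcription factors needed for its growth, and its cells leave the somite as mesenchyme to build vertebrae and ribs. Each sclerotome is split along the body axis into a rostral compartment marked by Tbx18 and a caudal compartment marked by Uncx, and nerves and neural crest cells pass through the rostral one. Pax3, which the rule required to be absent, marks the dermomyotome, the dorsal part of the somite, and Sox10 marks neural crest.

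In all, 151474708 UMIs were counted over 10996 barcodes at E10.5 and 159619785 over 12289 barcodes at E11.5. Sclerotome-rule cells had a median of 20601 UMIs at E10.5 (lowest 2127, highest 99129), against 16967 over all cells kept, and a median of 10961 at E11.5. The libraries shared 37 barcodes, of which 0 belonged to a sclerotome-rule cell. Levels are UMIs summed over the cells of a group per 1000000 UMIs (CPM), leaving haemoglobin and mitochondrial genes out of the total. Since the assay counts the ends of transcripts, CPM needs no correction for length.

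The genes of the rule had these values by construction. Sox9 lies at chr11:112782224-112787760 on the plus strand of GRCm38, Nkx3-2 at chr5:41761483-41764501 on the minus strand, Uncx at chr5:139543494-139548179 on the plus strand and Tbx18 at chr9:87702800-87731260 on the minus strand, per GENCODE release M21. In E10.5 sclerotome-rule cells, Pax1 had a lowest count of 2, a median of 9 and a highest of 69 UMIs per cell, and Pax9 had 1, 3 and 30. Of the other 2 markers, Sox9, the transcription factor that drives cartilage formation, was detected in 95.2% of cells, with a median of 6 and a highest count of 43 UMIs. Nkx3-2, a repressor that acts downstream of Pax1 and Pax9 in the sclerotome, was detected in 22 of 1064 cells (2.07%), with 23 UMIs in all. The label of sclerotome thus rests on Pax1, Pax9 and Sox9, and Nkx3-2 was near 0. At E11.5, Sox9 was detected in 84.2% of the 76 cells and Nkx3-2 in 3 of them.

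Cells on either side of the threshold had values in a graded order. The 110 sclerotome-rule cells with exactly 2 Pax1 UMIs had Sox9 at 319 CPM and the collagen gene Col2a1 at 335 CPM. The 137 cells just outside, with 1 Pax1 UMI and at least 1 of Pax9, had 265 and 229 CPM. The 418 cells with Pax9 but no Pax1 had 145 and 103 CPM. Another 299 cells had at least 2 Pax1 UMIs and no Pax9, with Sox9 at 284 and Col2a1 at 298 CPM. Only 14 cells met the Pax rule but carried Pax3, and 23 carried Sox10.

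The starts of Pax1 and Pax9 are shown because these genes chose the cells, that of Saa1 because it and its neighbour Saa2 were high in them together, and that of Sema3a because it differed most between the Uncx and Tbx18 compartments. Each run is the 250 bases upstream of a RefSeq transcript start on GRCm38.p6, written 5′ to 3′ on the gene's strand, with E-box letters (CANNTG, which read the same on both strands, and which factors of the Twist family bind) in capitals. The Pax1 window lies at chr2:147364744-147364993 on the plus strand, the Pax9 window at chr12:56695221-56695470 on the plus strand, the Saa1 window at chr7:46742981-46743230 on the minus strand and the Sema3a window at chr5:13396534-13396783 on the plus strand. None overlaps an exon annotated in GENCODE release M21, and the Pax1, Pax9 and Sema3a windows lie inside the annotated span of their gene, in an intron.
Pax1: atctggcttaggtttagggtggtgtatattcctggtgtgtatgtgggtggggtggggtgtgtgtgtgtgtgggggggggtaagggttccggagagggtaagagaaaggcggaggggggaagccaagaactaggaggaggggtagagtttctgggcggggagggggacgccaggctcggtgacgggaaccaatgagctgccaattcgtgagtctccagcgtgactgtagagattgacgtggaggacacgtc
Pax9: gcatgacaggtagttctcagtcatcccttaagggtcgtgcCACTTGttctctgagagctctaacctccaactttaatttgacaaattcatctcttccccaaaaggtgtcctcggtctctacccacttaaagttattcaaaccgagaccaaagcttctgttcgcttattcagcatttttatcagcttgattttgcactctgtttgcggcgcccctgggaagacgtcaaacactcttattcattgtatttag
Saa1: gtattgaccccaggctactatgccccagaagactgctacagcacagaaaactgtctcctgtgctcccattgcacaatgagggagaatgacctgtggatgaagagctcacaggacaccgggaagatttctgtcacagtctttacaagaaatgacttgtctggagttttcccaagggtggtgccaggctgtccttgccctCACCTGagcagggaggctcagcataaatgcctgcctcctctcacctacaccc
Sema3a: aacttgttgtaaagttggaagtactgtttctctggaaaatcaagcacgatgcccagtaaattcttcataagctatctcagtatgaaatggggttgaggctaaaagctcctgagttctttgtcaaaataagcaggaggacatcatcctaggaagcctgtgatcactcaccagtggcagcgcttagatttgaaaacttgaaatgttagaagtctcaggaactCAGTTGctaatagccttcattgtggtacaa
The Pax1 window holds no E-box letters, while the Pax9 window holds CACTTG, the Saa1 window CACCTG and the Sema3a window CAGTTG. Of 32851 RefSeq promoters, 66.2% hold such letters in the same window, and of the 14 genes looked at here, 7 do. The letters TGGGTGGTC, a site to which Gli factors of the hedgehog pathway bind, were searched on both strands and occur in 0.225% of all promoters and in 0 of the 14. These matches are letters only and describe no binding.

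Compared with all 6601 other E10.5 cells, sclerotome-rule cells had high levels of a set of transcription factors and of cartilage matrix genes, and low levels of neuron, muscle and liver genes. The comparison asks what these cells hold that the rule did not use. Of 6556 genes with at least 20 CPM in either group, 1.19% were at least 2-fold higher in them and 4.41% at least 2-fold lower. Of 27 sclerotome regulators, a list that leaves Pax1 and Pax9 out, 22 reached 20 CPM, and 13 of these were at least 2-fold higher and 0 lower, with a median log2 ratio of 1.15 beside 0.00 over all genes. Since the list was chosen with results of these cells known, its direction is a description.

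Zic1, a zinc finger factor of dorsal sclerotome and neural tube, had the highest ratio of the named genes, at 65.5 CPM against 6.85 in other cells (log2 ratio 3.26, 3.13 to 3.38). It was in 28.4% of sclerotome-rule cells, so a minority of them carried it. The forkhead factor Foxf2 followed, at 58.0 against 8.65 CPM (2.74, 2.62 to 2.86), and its relative Foxf1 was 126 against 33.0 CPM (1.93, with an interval from 1.86). Foxf1 is also a marker of lateral plate mesoderm, but Gata6 and Hand2, which mark the same mesoderm, were lower, at 10.9 against 79.0 CPM for Gata6 and 5.14 against 46.3 CPM for Hand2. Sox9 itself was 380 against 106 CPM (1.84, 1.80 to 1.88). Meox2 and Meox1, homeobox factors of the somite, had log2 ratios of 2.41 (2.30 to 2.52) and 1.15 (1.10 to 1.19). Twist1, which keeps mesenchyme undifferentiated, was among the most abundant regulators at 559 against 175 CPM (1.68), and Foxd1 reached 515 against 200 CPM (1.36). Prrx1, Snai2, Foxd2 and Mfap4 of the same list were within 0.1 of equal on the log2 scale.

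Col2a1, which encodes the main collagen of cartilage, had a median of 6 and a highest count of 41 UMIs per cell and was in 92.4% of sclerotome-rule cells, at 360 against 70.3 CPM (2.36, 2.31 to 2.40). Its partner collagens Col9a1 and Col11a1 were 192 against 55.3 CPM (1.80) and 140 against 37.9 CPM (1.89). Hapln1, the link protein of cartilage proteoglycan, went the other way, with a log2 ratio of -1.84 and 41.1 CPM in other cells. These 4 were the genes of the cartilage list that reached 20 CPM, 3 of them at least 2-fold higher. Genes of mature cartilage were scarce, with Acan at 2.68 CPM, Matn4 at 0.835 CPM and Matn1 with no UMI. Lum, a small proteoglycan of loose connective tissue, was 150 against 29.4 CPM (2.36), and Has2, which makes hyaluronan, 53.1 against 10.0 CPM (2.41). Of 14 mesenchymal matrix genes that reached 20 CPM, 2 were at least 2-fold higher (Lum and Vcan) and 1 lower, with a median of 0.11.

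Saa1 and Saa2, neighbouring genes that encode serum amyloid A, a lipid carrier best known from the liver's response to inflammation, were 73.2 against 12.9 CPM (2.51, 2.40 to 2.61) and 59.5 against 11.3 CPM (2.39, 2.28 to 2.50). Saa1 was in 55.1% of sclerotome-rule cells, with a highest count of 18 UMIs. The 2 genes are close copies, so reads may be shared between them and the split of UMIs is uncertain. Liver genes did not go with them, since Afp was 19.8 against 436 CPM.

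**Figure D1:**
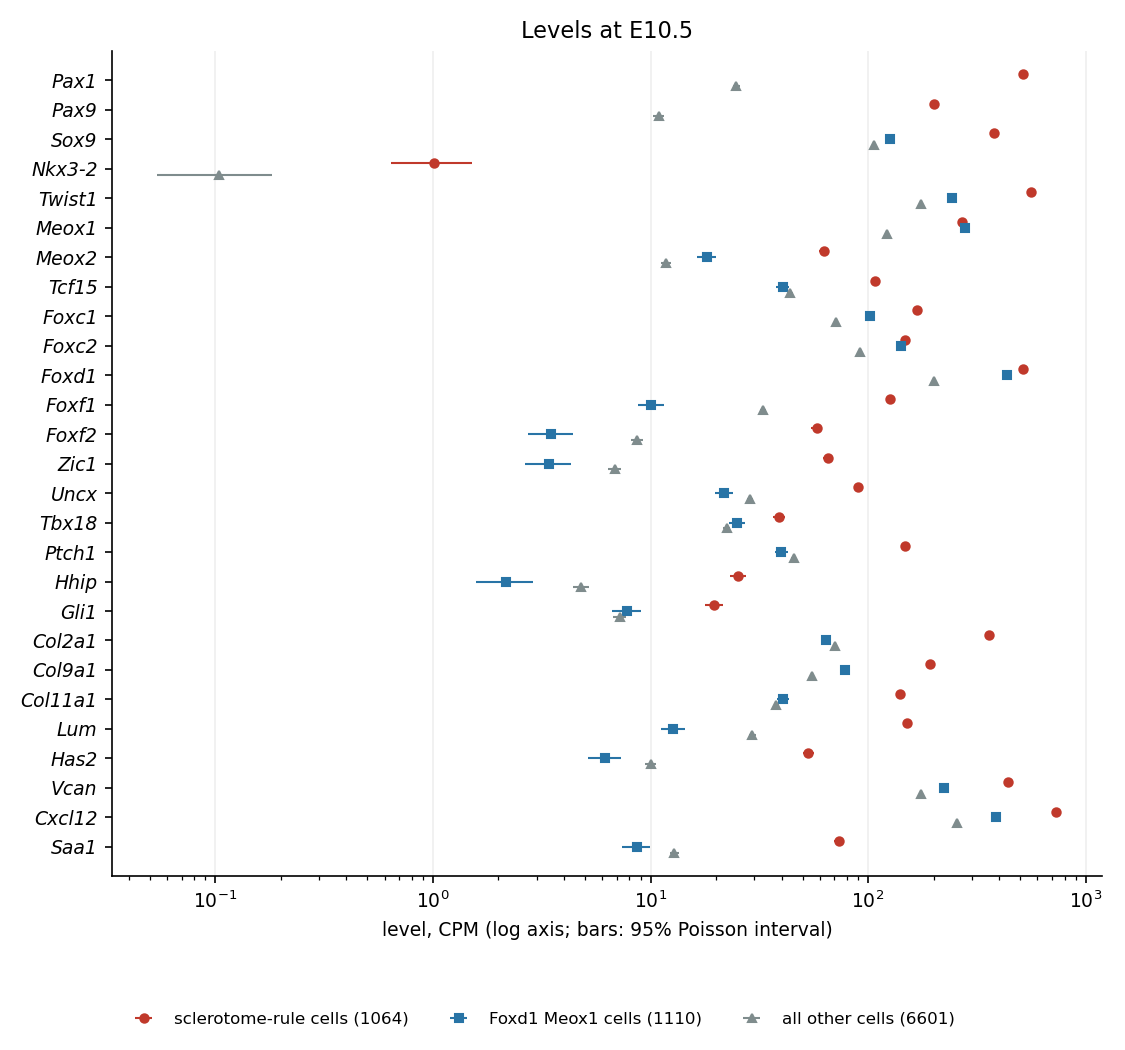
Levels at E10.5 of genes in sclerotome-rule cells (red circles), Foxd1 Meox1 cells (blue squares) and all other cells (grey triangles), in CPM on a log axis, with bars for the 95% Poisson interval. Pax1 and Pax9 are 0 by rule in Foxd1 Meox1 cells, where Nkx3-2 also had no UMI, and zeros are not drawn. Zic1 lies at 65.5, 3.41 and 6.85 CPM. Meox1 and Foxd1 chose the blue group, and Meox1 lies at 269 and 278 CPM in the first 2 groups.

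Hedgehog signalling was read from its target genes, which rise in cells that receive the signal, and from its ligands and receptors. Ptch1, both receptor and target, was detected in 84.6% of sclerotome-rule cells at 149 against 45.4 CPM (1.71, 1.65 to 1.77). Hhip, a decoy receptor that is also a target, was 25.2 against 4.77 CPM (2.40, 2.23 to 2.57), and Gli1, the target most often used as a readout, was 19.6 against 7.23 CPM (1.44, 1.27 to 1.61). The ligand Shh was 3.08 against 41.3 CPM (-3.75). Among the parts that sense the signal, Smo was 89.5 against 75.1 CPM (0.25), and the coreceptor Gas1 was lower, at 75.9 against 209 CPM (-1.46). In all, 6 of 16 genes of the pathway reached 20 CPM, of which 2 were at least 2-fold higher and 2 lower.

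Bone morphogenetic protein (BMP) and Wnt genes were also read by role. The ligand Bmp4 was 18.2 against 50.4 CPM (-1.47, -1.61 to -1.32), and Smad6 and Smad7, inhibitors that BMP signalling induces, had log2 ratios of -1.12 and -1.01. Id1, Id2 and Id3, targets of the pathway, were lower by less than 2-fold, at -0.60, -0.68 and -0.74. Of 10 BMP pathway genes that reached 20 CPM, 3 were at least 2-fold lower and 0 higher, with a median of -0.64. Of 9 Wnt pathway genes, 1 was higher and 1 lower: the agonist Rspo3 was 99.1 against 29.0 CPM (1.77) and the antagonist Sfrp1 57.3 against 163 CPM (-1.51). Signals to migrating cells differed one by one. The chemokine Cxcl12 was 728 against 257 CPM (1.5), the matrix proteoglycan Vcan 441 against 176 CPM (1.33) and the repellent Sema3a 29.1 against 13.4 CPM (1.12), while the repellent Slit2 was lower at 20.3 against 53.3 CPM (-1.40). Of 13 genes of that list, 3 were at least 2-fold higher and 2 lower.

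Markers of other cell types were lower when summed over their lists, with the exception of the nephric list, and few were at 0. The genes with the lowest ratios included Insm1 (-3.97) and Dbh (-3.56) of sympathetic neurons, Afp (-4.46), Ttr (-4.12), Rbp4 (-3.67) and Apoa2 (-3.54) of liver, Myog (-3.93), Tnni1 (-3.81) and Mylpf (-3.69) of muscle, and the peptide gene Cck (-3.80). Summed over their lists, dermomyotome and muscle markers were 25.9 against 133 CPM, with 2 of 11 at 0 (Pax3, by rule, and Lbx1). Neural crest markers were 47.3 against 203 CPM, with Sox10 alone, by rule, at 0 of 8. The sums of these 2 lists include Pax3 and Sox10, which the rule held at 0. Endothelial markers were 43.7 against 222 CPM, with none of 7 at 0. Epithelial, notochord or floor plate, and neural tube markers were 34.8, 31.5 and 105 CPM against 214, 217 and 445 CPM. Hepatoblast markers were 33.9 against 609 CPM, and 34.4% of their UMIs lay in 1 cell. Nephric markers summed to 558 against 457 CPM, but Foxd1, which that list shares with the sclerotome list, made up most of this, and Wt1 was 14.5 against 106 CPM. Lateral plate markers summed to 226 against 399 CPM, of which 6 of the 8 that reached 20 CPM were lower and Foxf1 was higher. The part of RNA from other cells in these values was not tested. Genes of S phase (16) and of G2 and M phase (15) had medians of 0.24 and 0.41, with 0 past 2-fold in either list. Of 10 genes induced by dissociation, 2 were at least 2-fold lower (median -0.16), and of 7 early-embryo genes such as Lin28b, 0 passed 2-fold (0.19).

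Free RNA in droplets gives a few UMIs of abundant genes to cells that do not make them, so shares of cells were set beside endothelial and neural crest cells. Endothelial cells, chosen by Cdh5 and Pecam1 and without those that met the sclerotome rule, numbered 310 with a median of 23956.5 UMIs. Neural crest cells, chosen by Sox10 and Foxd3, numbered 233 with a median of 26536. Pax1 was found in 10.0% of endothelial and 12% of neural crest cells and Pax9 in 3.23% and 9.44%. Leaving out cells that met the rule can lower the endothelial shares of Pax1 and Pax9. With each cell thinned to 5000 UMIs, Pax1 was in 86.0% of sclerotome-rule cells, 2.30% of endothelial and 4.72% of neural crest cells. At that depth Col2a1 was in 73.9% of sclerotome-rule cells and 5.59% of endothelial cells, Saa1 in 28.0% and 0.99%, and Zic1 in 17.3% and 0.33%. Col2a1 was common in neural crest cells as well, at 34.3%, while Saa1 was in 3.43% and Zic1 in 1.29% of them. The shares of Col2a1, Saa1 and Zic1 were higher in sclerotome-rule cells than in either other type, whereas that of Pax1 was set by the rule. Nkx3-2 was in 0.57% of thinned sclerotome-rule cells.

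**Figure D2:**
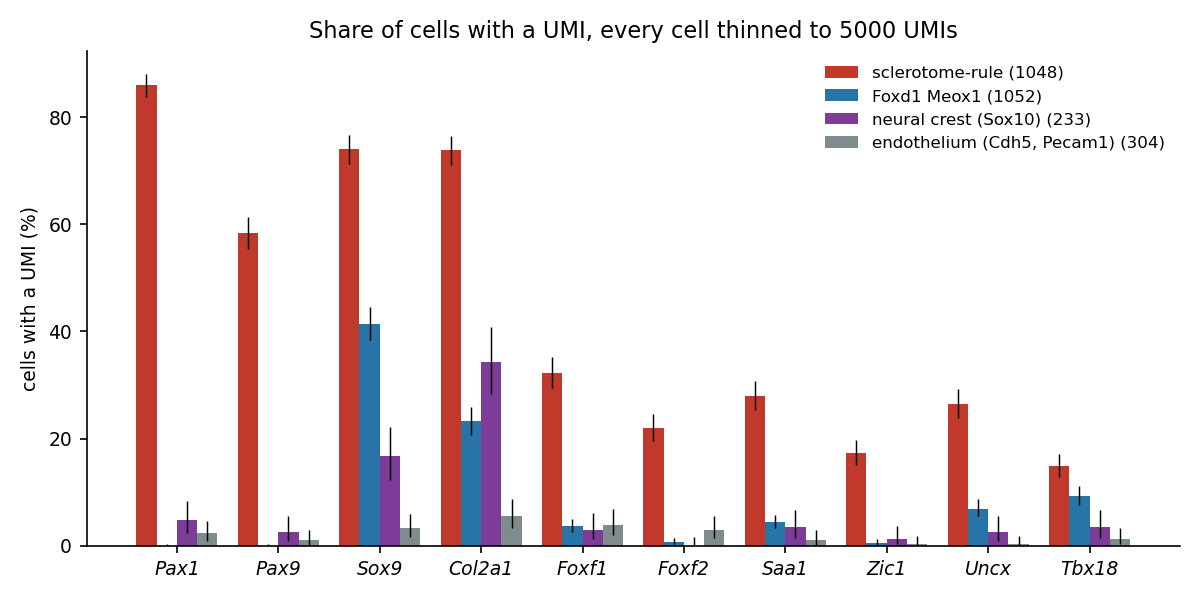
Share of E10.5 cells with at least 1 UMI of a gene, in percent, after each cell was thinned to 5000 UMIs, in 4 groups of cells with 95% exact binomial intervals as bars. Pax1 and Pax9 chose the red group and are 0 by rule in the blue one, and Pax1 reached 4.72% in neural crest cells and 2.30% in endothelial cells.

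The nearest mesenchyme without Pax1 and Pax9 was the set of 1110 cells with Foxd1 and Meox1 and none of Pax1, Pax9, Pax3 or Sox10, with a median of 17677 UMIs. These cells had levels close to those of sclerotome-rule cells in Meox1 (269 against 278 CPM, -0.05), Foxc2 (148 against 141 CPM, 0.07), Ebf2 (-0.18) and Col3a1 (0.10), although Meox1 and Foxd1 chose them. Of 6391 genes, 1% were at least 2-fold higher in sclerotome-rule cells and 2.28% lower. Of 20 regulators that reached 20 CPM, 7 were higher and 2 lower, with a median of 0.41.

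Zic1 was 65.5 against 3.41 CPM (4.27, 3.92 to 4.63), Foxf2 58.0 against 3.50 CPM (4.05, 3.71 to 4.41) and Foxf1 126 against 10.1 CPM (3.64, 3.44 to 3.85). Lum, Has2 and Saa1 followed, with log2 ratios of 3.56, 3.1 and 3.08, then Saa2 (2.71) and Col2a1 (360 against 64.2 CPM, 2.49, 2.40 to 2.57). Sox9 was in 72.8% of Foxd1 Meox1 cells but at a level of 126 CPM, against 380 CPM in sclerotome-rule cells (1.60). The hedgehog targets were apart here too, with Hhip at 25.2 against 2.16 CPM (3.55), Ptch1 at 149 against 39.9 CPM (1.90) and Gli1 at 19.6 against 7.77 CPM (1.34). Twist1 (1.20), Tcf15 (1.41), Sox6 (1.40) and Uncx (2.04) were higher as well.

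The genes higher in the Foxd1 Meox1 cells included Wt1 (14.5 against 161 CPM, -3.47, -3.64 to -3.31), a factor of mesothelium and kidney, the homeobox gene Alx1 (4.39 against 61.7 CPM, -3.81), Crabp1 (80.0 against 588 CPM, -2.88), which binds retinoic acid, Adamts18 (-3.32) and Rgs5 (-2.94). Myog (-3.72) and Mylpf (-3.29) of muscle were also higher there, but Myog was in 4.68% of those cells against 3.29% of sclerotome-rule cells, so few cells carried it. Among shared mesenchyme genes, Prrx1 (-1.14), Gas1 (-1.72), Bmp4 (-1.74) and Sfrp1 (-1.87) were lower in sclerotome-rule cells.

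The comparison with the other side of the somite rests on 39 cells with Pax3 and Meox1, without Pax1, Pax9, Sox10 or the myogenic factors Myf5, Myod1 and Myog. Of 6370 genes, 4.95% were at least 2-fold higher in sclerotome-rule cells and 2.28% lower. The share higher was larger than against Foxd1 Meox1 cells (1%), and the share lower was the same. The counts depended on depth, with 315 higher and 145 lower as counted and 674 and 465 in thinned cells. Of 23 regulators that reached 20 CPM, 15 were higher and 3 lower (median 1.68). Sox9 was 380 against 31.5 CPM (3.60, 3.05 to 4.2), Foxc1 168 against 4.66 CPM (5.17), Foxd1 515 against 23.3 CPM (4.46), Cxcl12 728 against 38.5 CPM (4.24) and Ptch1 149 against 18.7 CPM (2.99). Zic1, Saa1 and Tbx1 had no UMI in the 39 cells. With 0 read as 3 UMIs, they were 18.7-fold, 20.9-fold and 24.6-fold higher. The lower bounds of their log2 ratios were 3.93, 4.09 and 4.32, which are smaller folds than these. Lum and Foxf1 had 1 UMI each there, with log2 ratios of 7.01 (4.53 to 12.3) and 6.75 (4.27 to 12.1). Among those lower in sclerotome-rule cells were Dmrt2, a dermomyotome factor (0.395 against 332 CPM, -9.71, -10.9 to -8.77), C1qtnf3 (-4.85), Sim1 (-4.64), the axon receptor Epha3 (-3.99), Tbx3 (-3.96), Plch1 (-3.83) and Wnt16 (-3.40). Of factors of the whole somite, Twist1 was within 2-fold, at 559 against 503 CPM (0.15). Tcf15 was more than 2-fold lower in sclerotome-rule cells, at 108 against 350 CPM (-1.69). Meox1 was 269 against 416 CPM (-0.63), but Meox1 chose the 39 cells, so the rule sets part of its ratio.

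Within the 1064 cells, Tbx18 was found less often in cells with Uncx than in cells without it. At E10.5, 381 cells carried Uncx alone, 331 Tbx18 alone, 97 both and 255 neither. Tbx18 was found in 20.3% of cells with Uncx (16.8 to 24.2) and in 56.5% of cells without it (52.4 to 60.5). After thinning to 5000 UMIs the shares were 4.32% and 18.7%, with 12 cells carrying both. At E11.5 they were 18.2% of 22 cells and 46.3% of 54 cells. In endothelial cells at 5000 UMIs, Uncx was in 0.33% and Tbx18 in 1.32%, against 26.5% and 14.9% of sclerotome-rule cells. The shares were 6.94% and 9.22% in Foxd1 Meox1 cells, and 26.3% and 0% in the 38 Pax3 Meox1 cells of that depth. Uncx was thus as common in Pax3 Meox1 cells, within counting error (13.4 to 43.1).

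The cells with Uncx alone (median 20443 UMIs) and those with Tbx18 alone (median 22070) were nearly alike over all genes. Of 6155 genes, 0.179% were at least 2-fold higher with Uncx and 0.195% lower, or 11 and 12 genes. Sema3a, a secreted repellent of axons and neural crest, differed most, at 50.6 CPM with Uncx against 10.3 CPM with Tbx18 (2.30, 1.95 to 2.67), and was in 52.2% against 17.5% of cells. Pcp4 (61.7 against 16.0 CPM, 1.95), Carhsp1 (1.36), the growth regulator Mycn (101 against 44.4 CPM, 1.18), Tshz2 (1.17) and Igfbp5 (1.09) were also higher with Uncx. Higher with Tbx18 were the homeobox gene Prrx1 (31.8 against 81.9 CPM, -1.37, -1.58 to -1.15), the arginine-cleaving enzyme Arg1 (60.0 against 149 CPM, -1.31, -1.47 to -1.16), Mpped2 (-1.28), the secreted Angptl1 (-1.15), the proteoglycan gene Dcn (-1.15) and Rspo3 (67.1 against 134 CPM, close to 2-fold lower).

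Genes of cartilage and of hedgehog signalling differed little between the compartments, with Sox9 at 428 against 373 CPM (0.20), Col2a1 at 403 against 341 CPM (0.24) and Ptch1 at 144 against 148 CPM (-0.04, -0.16 to 0.08). Of 22 regulators, 0 were at least 2-fold higher with Uncx and 1, Prrx1, was lower. Meox1 was 350 against 223 CPM (0.65), while Foxd1 (-0.49), Ebf1 (-0.61) and Twist1 (-0.37) had lower levels with Uncx. Of 13 mesenchymal matrix genes, 0 passed 2-fold and 2 lay above 0, with a median of -0.28 and Lum at -0.67, Col3a1 at -0.54 and Vcan at -0.73. Nrp2, a receptor for secreted semaphorins, was 47.0 against 92.6 CPM (-0.98). Other genes known from the border between compartments were closer to equal, with Epha4 at 0.40, Efnb1 at 0.38, Efnb2 at -0.40 and Cdh11 at -0.25, and 0 of these 4 passed 2-fold. When cells were thinned before they were grouped, leaving 266 and 144 cells, Sema3a had a log2 ratio of 1.84, Prrx1 -1.45, Arg1 -1.52 and Rspo3 -1.36.

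**Figure D3:**
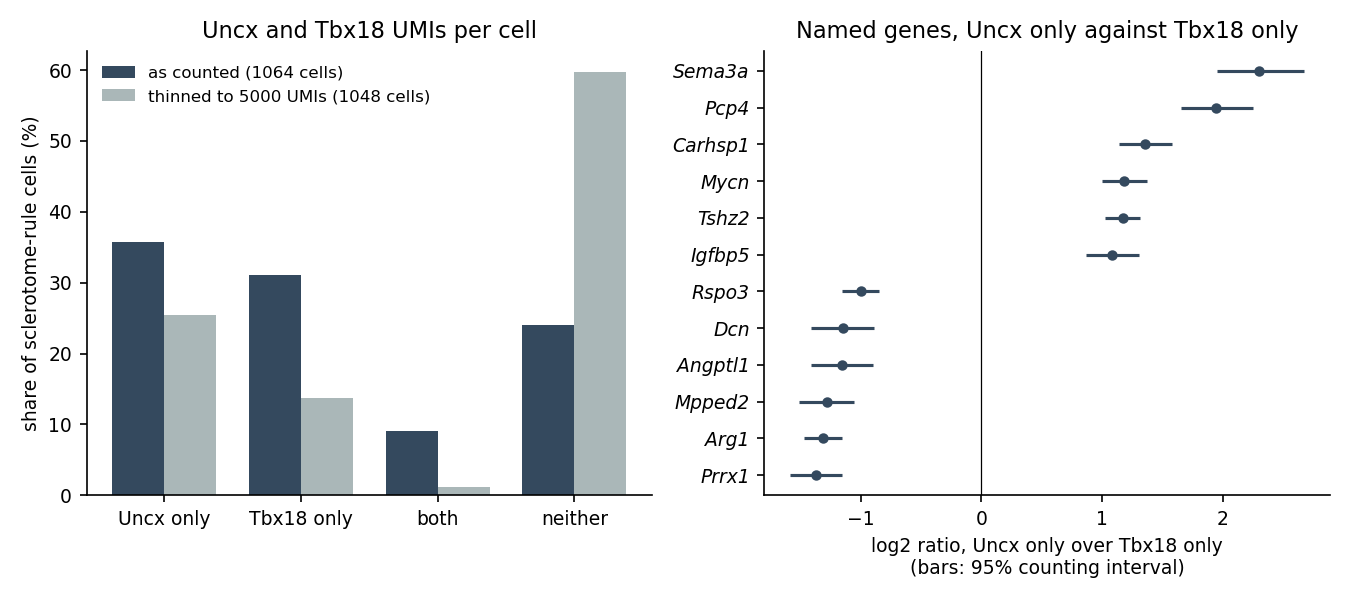
The left panel gives the share of E10.5 sclerotome-rule cells, in percent, with UMIs of Uncx only, Tbx18 only, both or neither, as counted (1064 cells) and with each cell thinned to 5000 UMIs (1048 cells). The right panel gives log2 ratios of the 12 named genes, Uncx only over Tbx18 only, with 95% counting intervals, from 2.30 for Sema3a to -1.37 for Prrx1.

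Hox genes mark position along the body axis, with higher paralog numbers used farther toward the tail. Of E10.5 sclerotome-rule cells, 96.9% carried a UMI of paralog group 4, 92.3% of group 5, 68.3% of group 6, 60.8% of group 7, 64.9% of group 8 and 37.1% of group 9. Group 10 was found in 4 cells, group 13 in 1, and groups 11 and 12 in 0 of 1064. The loss of signal thus lay between groups 9 and 10.

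The 395 cells with a Hox9 UMI (median 23030 UMIs) were set beside the 669 without (19494), a split chosen after Hox10 proved too rare. Of 6163 genes, 0.26% were at least 2-fold higher with Hox9 and 0.0649% lower. Hoxc8 was 96.1 against 9.19 CPM (3.39, 3.11 to 3.67), Hoxa7 119 against 19.0 CPM (2.65, 2.45 to 2.85) and Hoxc6 159 against 57.0 CPM (1.48). Hoxa4 (30.6 against 89.8 CPM, -1.55), Hoxb5 (-0.97) and Hoxa5 (-0.93) were lower. Outside the Hox genes, Acta2 (300 against 62.1 CPM, 2.27) and Actc1 (1.52) of smooth and cardiac actin and the neurofilament gene Nefm (1.69) were higher, but 1 cell held 22.2% of the Acta2 UMIs and 33.8% of the Nefm UMIs of the group. Afp (1.73) and the epithelial keratin Krt18 (1.29) were higher too, with 59.7% of the Afp UMIs in 1 cell, and the part of other cells' RNA was not tested. Foxf1 (-0.91), Dcn (-1.18) and the metal-binding gene Mt1 (-1.15, with 36.7% of its Hox9 group UMIs in 1 cell) were lower. Sox9 (-0.16), Col2a1 (-0.23), Ptch1 (-0.06) and Meox1 (0.47) were within 2-fold, as were all 22 regulators that reached 20 CPM.

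**Figure D4:**
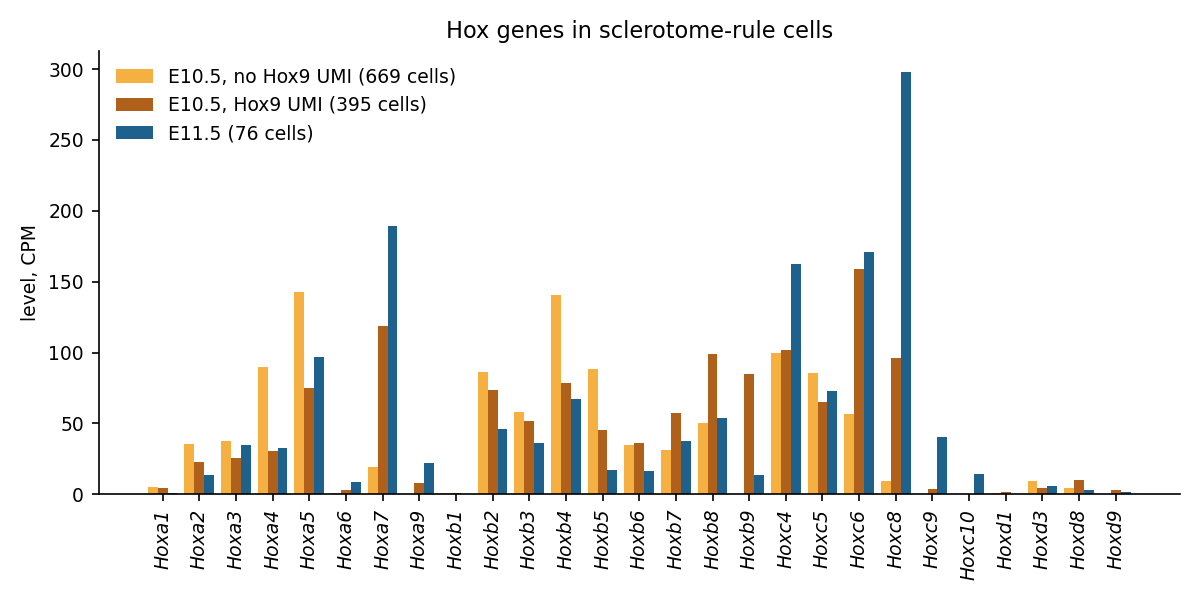
Levels of Hox genes in sclerotome-rule cells, in CPM, for E10.5 cells without a Hox9 UMI (669), E10.5 cells with one (395) and E11.5 cells (76), for genes with at least 20 UMIs at E10.5 or 5 at E11.5. The Hox9 genes define the first 2 groups, and Hoxc8 stands at 9.19, 96.1 and 298 CPM.

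Rare genes split the cells less clearly. The 22 cells with Nkx3-2 (median 23825.5 UMIs) and the 1042 without (20571) had Sox9 at 484 against 378 CPM (0.36) and Pax1 at 645 against 513 CPM (0.33). Of 6341 genes, 0.473% were at least 2-fold higher with Nkx3-2 and 1.44% lower, and 0 of 22 regulators passed 2-fold in either direction. The lipid enzyme Scd1 (1.04, 0.52 to 1.53), Trib2 (1.00), Tspan7 (0.99), Pcgf6 (0.93), Zic1 (0.83) and Arg1 (0.83) were the named genes with more, though Tspan7 was -0.14 in thinned cells, and Acta2 (9.56 against 167 CPM, -4.13), Tagln (-3.20) and Actc1 (-2.27) of contractile cells those with least. The shares of cells differed less or the other way, with Acta2 in 22.7% against 27.6%, Tagln in 27.3% against 34.7% and Actc1 in 31.8% against 21.2%, and 1 cell held 17.4% of the Acta2 UMIs of the cells without Nkx3-2. Crabp1 (-1.16), Palld (-0.97) and Hoxa7 (-1.57, with 81.8% of its UMIs in 1 of the 22 cells) were also lower. Among the genes with more, 1 of the 22 cells held 35% of the Zic1 UMIs. The highest share of 1 cell was 23.7% for Pcgf6 and 18.2% for Trib2. It was 13.8% or less for Scd1, Tspan7 and Arg1. The ratios without such cells were not tested.

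Scx, a factor of tendon progenitors that arise at the edge of the sclerotome, was found in 145 cells (13.6%), with at most 4 UMIs in a cell. It was also in 11.6% of endothelial cells and 15.1% of Foxd1 Meox1 cells. At 5000 UMIs the shares were 4.01%, 3.29% and 4.75%, with 1.72% in neural crest cells and 0% in the 38 Pax3 Meox1 cells of that depth. The interval of the endothelial share (1.59 to 5.97) held the share of sclerotome-rule cells. The part of free RNA in the Scx UMIs was not tested. The split is therefore given as values only. Of 6235 genes, 0.353% were at least 2-fold higher with Scx and 0.0481% lower. Afp (2.47), Nefm (2.46) and Tubb3 (2.36) had the highest ratios, but 80.6%, 45.4% and 40.7% of their UMIs lay in 1 cell each, and Slc2a1 (0.77) had 30.9% in 1 cell. Nefm and Tubb3 turned to -1.08 each when cells were thinned before they were grouped, and Afp to -0.35 without cells that held at least 3 hepatoblast UMIs. Hepatoblast markers summed to 91.8 against 22.3 CPM and endothelial markers to 91.3 against 34.2 CPM, and their part in the result was not tested. Igfbp5 (88.4 against 47.6 CPM, 0.89) and Crabp1 (0.84) were spread over more cells. Zic1 (31.8 against 72.3 CPM, -1.18), Lum (-0.79), Foxf2 (-0.71), the histone gene Hist1h1a (-0.64) and Rspo3 (-0.62) were lower with Scx, but Rspo3 was 0.10 when cells were thinned before grouping. Acta2 had a log2 ratio of -0.82, but it was in more cells with Scx (32.4% against 26.8%), and 1 cell held 35.3% of its UMIs in the Scx group and 19.3% in the other. Among other tendon genes, Tnmd had 1 UMI in the 145 cells, Tnc was 3.95 against 3.53 CPM (0.16) and 0 of 3 genes of that list that reached 20 CPM passed 2-fold.

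At E11.5 the 76 sclerotome-rule cells also had high levels of regulators and cartilage genes when set against the 8831 other cells of that library. Of 7276 genes, 3.41% were at least 2-fold higher and 3.79% lower. Of 16 regulators, 12 were higher and 0 lower (median 1.56), and all 6 cartilage genes that reached 20 CPM were higher. Col2a1 was 605 against 22.6 CPM (4.74, 4.61 to 4.86), Sox9 431 against 63.2 CPM (2.77), Foxf2 61.5 against 2.42 CPM (4.67), Uncx 77.9 against 1.71 CPM (5.51), Tbx1, a T-box factor, 170 against 13.2 CPM (3.68) and Ptch1 135 against 37.7 CPM (1.83). Matn4 (4.95), Angptl1 (4.03), Col9a2 (3.55) and Col9a1 (3.34) were the other named genes with more. Those with less were Kctd14 (-5.76), Chgb (-5.23), Pf4 of platelets (-4.89), Lgals7 (-4.80), Tcf21 (-4.63), Ifitm1 (-4.35) and Ecm1 (-3.58), and Ednrb had no UMI against 53.9 CPM.

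The 2 stages were then compared. Stage, library and the tissue dissected cannot be told apart. Per cell at E11.5, Pax1 had a lowest count of 2, a median of 4 and a highest of 17 UMIs, in shallower cells than at E10.5. Meox1 was in 9.21% of cells at E11.5 against 88.9% at E10.5, and Scx in 31.6% against 13.6%. With all cells, 9.04% of 7022 genes were at least 2-fold higher at E11.5 and 1.55% lower, or 635 and 109 genes. The median log2 ratio was 0.14, and with it set to 0 the counts were 488 and 182. The leading genes were those of liver, such as Alb (1209 against 1.41 CPM, 9.75), Serpina6 (9.22), Apob (8.99), Serpina1a (7.78), Apoa1 (7.65), Afp (7.53) and Fabp1 (10.2), while Ahsg had no UMI at E10.5. The E11.5 cells held 6845 UMIs of 6 hepatoblast markers, of which 51.7% lay in 1 cell with 64188 UMIs and 98.7% in 5 cells. Leaving out cells with at least 3 such UMIs left 62 cells at E11.5 and 1048 at E10.5, and the values that follow come from these. Then 9.84% of 6979 genes were higher and 1.85% lower. Markers of other cells were still higher at E11.5 in part, with the red cell gene Klf1 at 43.1 against 2.46 CPM, the neuron gene Stmn2 at 51.0 against 10.8 CPM and Afp at 39.2 against 8.94 CPM. Of 10 dissociation genes, 3 were at least 2-fold higher (Fosb, Egr1 and Btg2) and 0 lower. Their part in the results was not tested.

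Sox9, Twist1, Foxd1 and Foxf2 had similar levels at both stages, while Meox1, Meox2, Tcf15, Zic1 and Ebf2 were lower at E11.5. Sox9 was 437 against 383 CPM (0.19, 0.03 to 0.35), Twist1 606 against 561 CPM (0.11), Foxd1 604 against 516 CPM (0.23) and Foxf2 66.7 against 58.0 CPM (0.20). Meox1 was 15.7 at E11.5 against 270 CPM at E10.5 (-4.11, -5.06 to -3.30), Meox2 6.54 against 62.5 CPM (-3.26), Tcf15 24.8 against 108 CPM (-2.12), Zic1 11.8 against 65.9 CPM (-2.49) and Ebf2 13.1 against 51.5 CPM (-1.98). The 9 Zic1 UMIs at E11.5 all came from 1 cell. Prrx1 (384 against 65.5 CPM, 2.55, 2.37 to 2.74), Sox5, a cofactor of Sox9 (110 against 38.9 CPM, 1.5), and Snai2 (1.43) were higher. Foxc1 (0.58) and Foxc2 (-0.47) were within 2-fold. Of 22 regulators, 4 were at least 2-fold higher and 5 lower.

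Of the 6 cartilage genes that reached 20 CPM, 3 were at least 2-fold higher at E11.5 and 0 lower, while Acan stayed scarce at 2.61 against 2.68 CPM. Matn4 was 53.6 against 0.76 CPM (6.14, 5.29 to 7.05), Col9a3 111 against 7.74 CPM (3.84, 3.45 to 4.23) and Col9a2 107 against 9.66 CPM (3.47), while Col2a1 (639 against 361 CPM, 0.82), Col9a1 (0.79) and Col11a1 (0.80) differed by less than 2-fold. Of 18 mesenchymal matrix genes, 12 were at least 2-fold higher and 0 lower (median 1.29), with Fn1 at 342 against 102 CPM (1.75), Sparc at 984 against 409 CPM (1.27), Col1a1 at 1.5, Fbln5 at 3.93, Col6a3 at 4.73 and the elastin gene Eln at 41.8 against 1.48 CPM (4.82). Lum went the other way (-0.60). The other named genes with more were the activin subunit gene Inhba (5.43), Lrp1b (5.27), Adgrg6 (4.90), Col12a1 (4.69) and Rgcc (4.35). Those with less were Arg1 (2.61 at E11.5, -5.32), Actc1 (-4.50), Igdcc3 (-3.18), Dusp9 (-2.95), Bcat1 (-2.67) and Metrn (-2.24).

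Signalling genes differed by pathway. Ptch1 was 140 against 149 CPM (-0.09, -0.38 to 0.19) and 0 of 6 hedgehog genes passed 2-fold. Bmp4 was 92.8 against 17.7 CPM (2.39), Sfrp1 336 against 57.2 CPM (2.55), the receptor gene Robo2 156 against 27.4 CPM (2.50) and Sema3a 122 against 29.2 CPM (2.06). Scx was 28.8 against 7.69 CPM (1.90, 1.19 to 2.55). Genes of the early embryo were lower in part, with Mycn at 19.6 against 65.8 CPM (-1.75), Lin28b at 9.15 against 26.2 CPM (-1.52) and Trim71 at 1 UMI (-4.41, -9.72 to -1.93), but Hmga2 at 705 against 667 CPM (0.08). Of 7 such genes, 3 were at least 2-fold lower. Of 16 S phase genes, 0 passed 2-fold, with a median of -0.40.

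Hox genes differed in both directions. Without mixed cells, 4 of 19 Hox genes that reached 20 CPM were at least 2-fold higher at E11.5 and 4 lower, with a median of -0.37. Over all 76 cells, Hoxc8 was 298 CPM against 46.2 CPM at E10.5, Hoxa7 189 against 61.6 CPM and Hoxc9 40.4 against 1.71 CPM, and Hoxb5 was 17.3 against 69.7 CPM. The order of the paralogs was not followed throughout, as Hoxb9 was lower (13.5 against 36.1 CPM) and Hoxc4 higher (162 against 101 CPM), and Hoxb8 was 53.8 against 71.1 CPM. Group 10 genes were found in 6.58% of cells at E11.5 against 0.376% at E10.5, and Hoxc9 without mixed cells had a log2 ratio of 4.98.

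**Figure D5:**
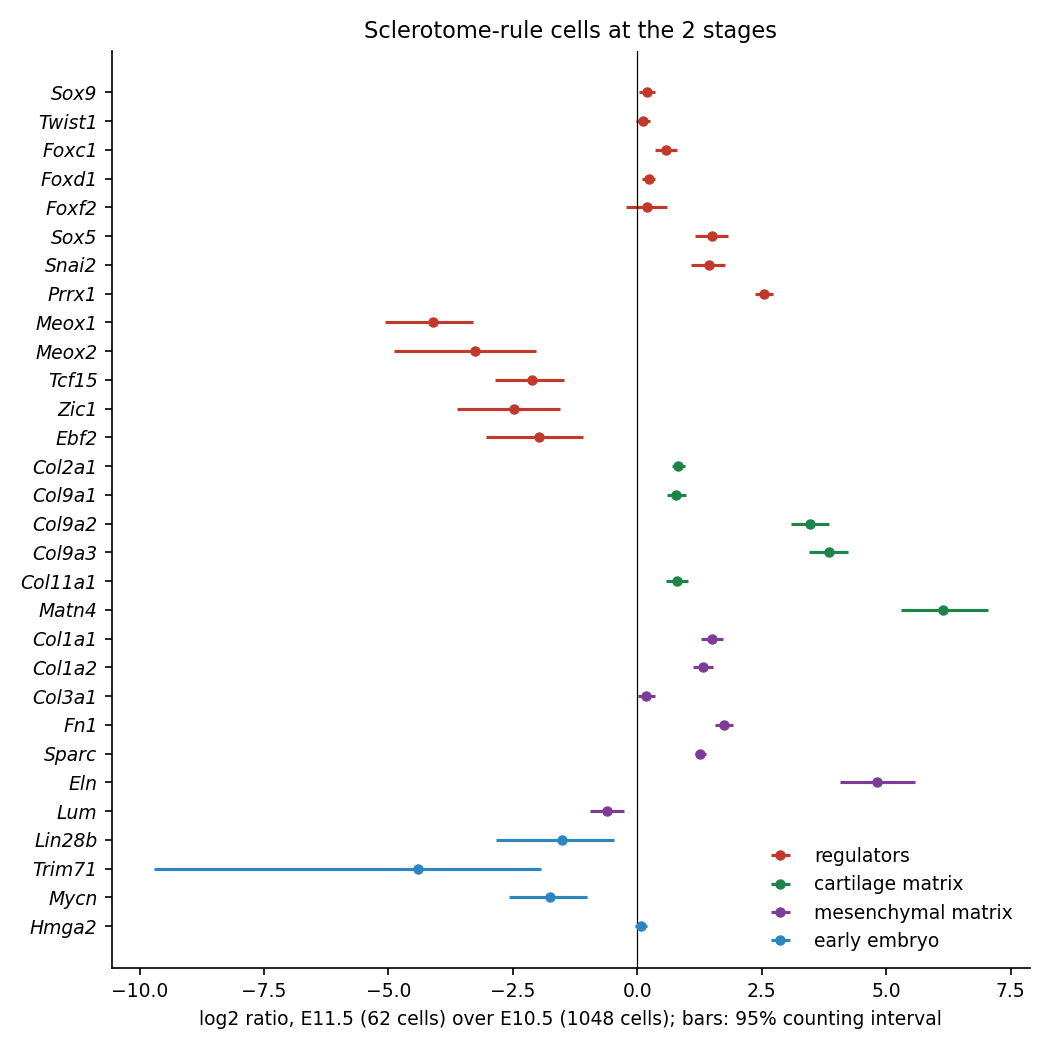
Log2 ratios of regulators, cartilage matrix, mesenchymal matrix and early-embryo genes, E11.5 (62 cells) over E10.5 (1048 cells) without cells that held at least 3 hepatoblast UMIs, with 95% counting intervals as bars. Sox9 and Twist1 lie near 0 at 0.19 and 0.11, Meox1 at -4.11 and Matn4 at 6.14.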

How the data were processed

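Single-cell libraries of E10.5 and E11.5 embryos, 1 each, were prepared with the 10x 3' kit per the labels' protocols. Per the submitters' processing notes, the authors used Cell Ranger 5.0.0 with mm10 (GRCm38), and the deposited values are UMI counts of 31053 genes per barcode. The lowest barcode total was 500 UMIs.

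The group was chosen by measured Pax1, Pax9, Pax3 and Sox10, and its rule, the 24 gene lists and the comparisons were chosen with earlier results of these data known. UMIs were summed over cells and given as CPM, with exact Poisson intervals for levels, exact conditional intervals for ratios and exact Clopper-Pearson intervals for shares. Genes with at least 20 CPM in either group were counted, and at least 2-fold was the call. A count of 0 was read as a limit of 3 UMIs over the group. Cells were thinned to 5000 UMIs to compare shares, leaving out 16 sclerotome-rule cells at E10.5. Named genes had at least 50 CPM in a group and were ranked by the interval bound nearest to 0, with 12 each way against all other cells, 8 against other groups or stages and 6 within the cells, and list members were named as examples. Some genes within this rule are not reported here. Genes of the group rules and mitochondrial, ribosomal, haemoglobin, Xist and Y-linked genes were left out of the ranking. Scrublet (scanpy 1.11.5) marked 0 of 8705 and 0 of 9756 cells at its automatic threshold, so it did not work and doublets were kept. As an alternative, the 8% with the highest scores were removed, which took 85 sclerotome-rule cells from the E10.5 library and 9 from the later one. Endothelial cells had at least 2 Cdh5 UMIs and 1 of Pecam1 and did not meet the sclerotome rule. Neural crest cells had at least 2 UMIs of Sox10 with Foxd3 or at least 5 of Sox10. The Hox9 split, the comparisons with E11.5 cells and the removal of cells with hepatoblast UMIs were added after the data were seen. The RefSeq table held 14 of 23 genes looked up. The code for the intervals was checked on simulated Poisson counts. That is the model the intervals assume, so the check does not cover differences between cells. Python 3.11.15, numpy 2.4.6, scipy 1.17.1 and pandas 2.3.3 were used.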

Additional observations from a re-analysis of the deposited data

Results flagged for a closer look

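Apoa1, a lipoprotein gene of liver, differed from other cells in opposite directions at the 2 stages. In sclerotome-rule cells it was 3.12 CPM against 24.3 CPM in other cells at E10.5 (log2 ratio -2.96, -3.32 to -2.62) and 626 against 264 CPM at E11.5 (1.24, 1.13 to 1.36). The difference was not tested, since each stage has 1 library. At E11.5, 56.8% of its UMIs in these cells lay in 1 cell, and without the cells that held at least 3 hepatoblast UMIs it had 4 UMIs (5.23 CPM), so the high E11.5 level came from the cells left out.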

How the results depend on the processing

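No paired analysis was possible because each stage has 1 library and both carry the same single replicate number. Of 1548 values of named genes over the alternatives, 1273 stayed within their counting interval, 269 kept their direction but left it and 6 changed direction, and of 238 main counts 192 stayed within 1.5 times or, for numbers of cells, within their interval. Counts below are genes at least 2-fold higher, then lower. With at least 50 CPM required, they were 105 lower against all other cells (289 as reported), 35 and 60 against Foxd1 Meox1 cells, 134 and 63 against Pax3 Meox1 cells, 7 and 6 for Uncx, 2 and 8 for Nkx3-2, 3 and 1 for Scx, 7 higher for Hox9, 263 and 49 for E11.5 against E10.5 and 125 and 63 for E11.5 against other cells, as fewer genes were counted. With cells thinned they were 674 and 465 for Pax3 Meox1, 24 and 36 for Uncx, 441 and 624 for Nkx3-2, 36 and 35 for Scx, 1024 and 289 for the stages and 412 and 493 for E11.5 against others, and Tspan7 with Nkx3-2 turned to -0.14. Thinned before grouping, Uncx had 17 and 22 and Scx 13 and 26, and Nefm and Tubb3 with Scx turned to -1.08 and -1.08 and Rspo3 with Scx to 0.10. Without the highest Scrublet scores they were 21 lower for Uncx, 49 higher for Nkx3-2, 14 and 9 for Scx, 8 lower for Hox9, 164 lower for the stages and 435 lower for E11.5 against others. With Pax3 and Sox10 allowed, Scx had 12 higher, Hox9 33 higher and Afp with Scx -0.43. With 1 Pax1 UMI enough, Scx had 7 lower. As means over cells, Nkx3-2 had 47 higher and Scx 9 and 6. With the median ratio set to 0, the stages had 182 lower. Without cells of hepatoblast UMIs, Afp with Scx was -0.35. For the other changes the cause was not tested. The Hox10 comparison was not run (4 cells), nor was Nkx3-2 after thinning before grouping (6 cells). The E11.5 group of 76 cells and the 39 and 22 cells of the small groups limit the precision of their ratios.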

Other observations

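Contractile genes were unevenly spread over sclerotome-rule cells. Acta2, the actin of smooth muscle, was found in 293 of 1064 cells at E10.5 with a median of 0 and a highest count of 645 UMIs, and in 16 of 76 cells at E11.5 with a highest count of 296. At E10.5 that was 27.5% of cells, below the shares of Foxd1 Meox1 cells (32.4%) and endothelial cells (50.6%). It was above those of neural crest cells (22.3%) and Pax3 Meox1 cells (20.5%). The order of these groups was the same in thinned cells. Tbx1 was in 45.0% of sclerotome-rule cells at E10.5 (highest count 22 UMIs) and 59.2% at E11.5. At E10.5 it was also in 34.2% of endothelial, 19.4% of Foxd1 Meox1 and 7.73% of neural crest cells.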
